A study of Pseudotsuga menziesii with 75 samples.

Results

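The HSP90 chaperones of Douglas-fir (Pseudotsuga menziesii) needles were followed by the cell compartment in which the matching Arabidopsis protein works. A contig, a transcript assembled from reads, was taken as a member when its Arabidopsis match was 1 of 6 HSP90 loci. 19 of the 59189 contigs met this rule, and all 19 passed the filter on low counts, isotig78712 only through Wiesloch in July. Of these, 9 match cytosolic HSP90, with 2 contigs for HSP90.1 (AT5G52640), 2 for HSP90.2 (AT5G56030) and 5 for HSP90.3 (AT5G56010). 8 contigs match the plastid HSP90.5 (AT2G04030), and 2 match HSP90.7 (AT4G24190) of the endoplasmic reticulum (ER). No contig carried the locus of the mitochondrial HSP90.6 (AT3G07770). Another 5 contigs carried an HSP90 name in place of a locus and were kept apart from the 19 in every count. They are contig58107 and isotig131159, named HSP90-1, isotig08032 and isotig08033, named HSP89.1, which is a name of the mitochondrial form, and isotig03253, named HSP81.4, which is a name of a cytosolic form.

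The data are 75 RNA-seq libraries of previous-year needles from the sun-exposed canopy of 25 adult trees. The trees came from 2 provenances, Salmon Arm (7 trees at Wiesloch and 6 at Schluchsee) and Cameron Lake (5 and 7), and grew at these 2 field sites without a treatment. The labels give noon as the time of day, with clock times of 12.83 to 15.72 h for the 62 libraries that have one. Needles were taken in 2010 on 12 May (Wiesloch), 27 May (Schluchsee), 16 June (Wiesloch), 30 June (Schluchsee), 14 July (Wiesloch), 28 July (Schluchsee), 8 September (Wiesloch) and 15 September (Schluchsee). The 16 groups of provenance, site and month held 4 to 5 libraries each, which made 10, 8, 10 and 10 libraries for the 4 months at Wiesloch and 10, 9, 10 and 8 at Schluchsee. Every month of a site is 1 day, so month, site and the conditions of that day cannot be told apart.

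HSP90 proteins are ATP-driven chaperones that hold client proteins, among them kinases, receptors and transcription factors, in a form that can be activated, and they do so with the help of co-chaperones. In Arabidopsis the cytosolic HSP90.1 is the strongly heat-inducible form, and HSP90.2 and HSP90.3 belong to the cytosolic forms that are made without heat. HSP90.5 works in the chloroplast stroma and HSP90.6 in mitochondria. HSP90.7, also called SHEPHERD, is the ER form and a relative of animal GRP94. These roles are known from Arabidopsis and are given here as the identity of each match, not as a result in Douglas-fir.

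Library totals lay between 18.54 and 47.51 M counts, with a median of 34.05 M (M for mega). Levels are in CPM, which is the count of a contig per M of all counts in its library, after TMM scaling. Contig lengths were not used here, so levels are compared between libraries and not between contigs. A difference was called when the adjusted p of edgeR's quasi-likelihood test was below 0.05, and each p of a single contig below is such a p, adjusted over the 59177 contigs tested by the method of Benjamini and Hochberg. Markers of needle mesophyll were high in every library, with a summed level of 4280 to 12300 CPM over 6 of 6 genes. The summed level of 5 of 5 xylem genes was 24.7 to 98.4 CPM, that of 2 of 4 guard cell genes 17.6 to 150 CPM, that of 1 of 5 dividing cell genes 0.366 to 3.93 CPM and that of 1 of 3 phloem genes 0.296 to 12.9 CPM. Of the 72 libraries whose tree had another library, 70 were closest to a library of the same tree over 2000 variable contigs. For 3 libraries the highest correlation with their own tree was below 0.6, a limit chosen after seeing the data. These 3 are Salmon Arm tree 11 and Cameron Lake tree 16 at Wiesloch in July and Cameron Lake tree 13 at Wiesloch in May. In bulk needles, fewer cells of a type and less RNA per cell cannot be told apart.

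The heat-inducible cytosolic form had one peak month at each site and low levels in the others. The level of its leading contig GAEK01023193.1, which had the highest mean of the HSP90.1 contigs (250 CPM), ran in Wiesloch from 10.7 over a median of 19.2 to 185 CPM in May. In June it ran from 51.3 over 118 to 141 CPM, in July from 963 over 1440 to 2000 CPM, and in September from 6.45 over 8.9 to 19.8 CPM. The July trees at Wiesloch stood above every other library of the data set, and the single high value of May, 185 CPM, belonged to Salmon Arm tree 14, with all other May trees at or below 36.9 CPM. At Schluchsee the level ran from 14.9 over 24.5 to 38 CPM in May and from 88.2 over 236 to 558 CPM in June. It ran from 5.99 over 11.5 to 25.5 CPM in July and from 10 over 12.6 to 17.7 CPM in September. The peak therefore fell in June at Schluchsee and in July at Wiesloch. In July the 5 Salmon Arm trees at Wiesloch were at 1030, 1480, 1500, 1880 and 2000 CPM and the 5 Cameron Lake trees at 963, 1290, 1380, 1410 and 1530 CPM, so the provenances overlapped.

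**Figure D1:**
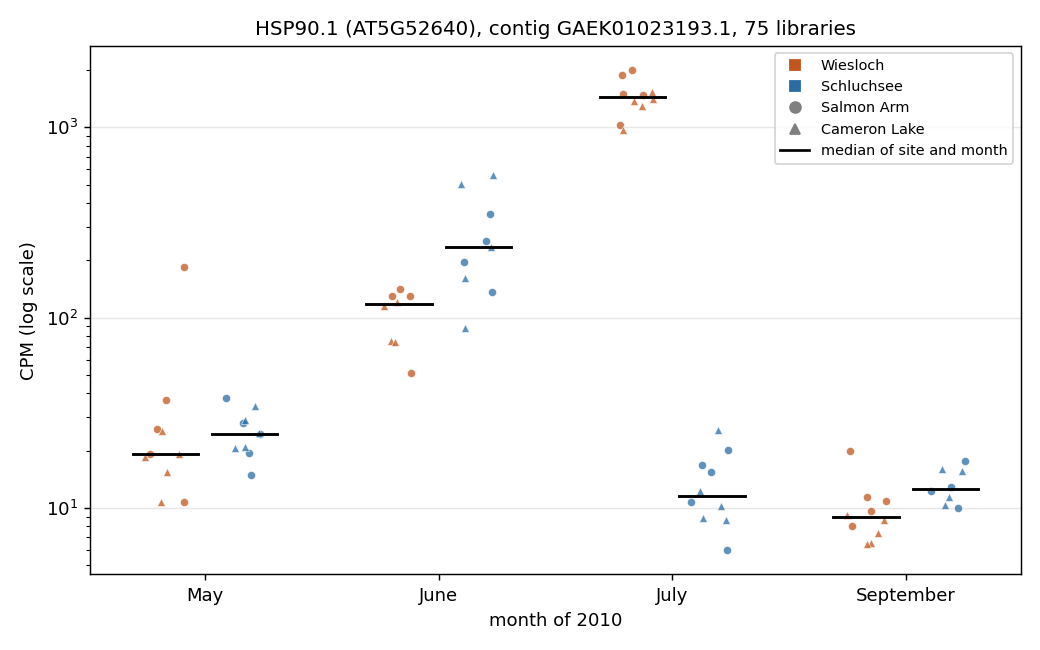
Level of HSP90.1 contig GAEK01023193.1 in each of 75 libraries (CPM, log axis) by month, with colour for the site, shape for the provenance and a bar at the median of each site and month. The 10 Wiesloch libraries of July lie between 963 and 2000 CPM, and the 10 Schluchsee libraries of July between 5.99 and 25.5 CPM.

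Ordered by mean, the level of GAEK01023193.1 rose from Wiesloch in September (9.79 ± 3.89 CPM, SD, n = 10) over Schluchsee in September (13.3 ± 2.84, n = 8), Schluchsee in July (13.5 ± 6.01, n = 10), Schluchsee in May (25.4 ± 7.05, n = 10) and Wiesloch in May (36.6 ± 52.6, n = 10). Wiesloch in June (105 ± 32.9 CPM, SD, n = 8), Schluchsee in June (276 ± 163, n = 9) and Wiesloch in July (1450 ± 324, n = 10) followed. Neighbours in this order overlapped except the last pair, Schluchsee in June and Wiesloch in July. At Wiesloch the log2 fold change was 1.73 from May to June (SE 0.32, adjusted p = 0.00017), 3.78 from June to July (SE 0.36, adjusted p = 1.3e-12) and -7.24 from July to September (SE 0.39, adjusted p = 1.4e-23). At Schluchsee it was 3.40 from May to June (SE 0.33, adjusted p = 8.7e-12) and -4.32 from June to July (SE 0.34, adjusted p = 7.8e-15), and the step of -0.01 from July to September was not called (adjusted p = 0.99). Schluchsee minus Wiesloch was 1.36 in June (SE 0.33, adjusted p = 0.0082) and -6.74 in July (SE 0.38, adjusted p = 1.2e-22), a 107-fold lower fitted level at Schluchsee. Without the May library of Salmon Arm tree 14 at Wiesloch the step into June there was 2.36 (adjusted p = 9.5e-09). In May (-0.30) and September (0.48) the sites were not called different. The June difference between sites was no longer called with the clock time of sampling in the model (1.11, adjusted p = 0.39), which used the 62 libraries with a clock time, only 3 of them from Wiesloch in June.

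The other HSP90.1 contig, GAEK01009189.1, had lower counts. It moved in the same direction as the lead where both were called, but its step of 0.53 from May to June at Wiesloch (adjusted p = 0.25) and its June difference of 0.52 between sites (adjusted p = 0.27) were not called. Its level was 38.5 over 74 to 154 CPM at Wiesloch and 1.3 over 4.27 to 6.66 CPM at Schluchsee in July, again without overlap. The July difference was -4.35 (SE 0.3, adjusted p = 5.6e-19), and the steps at Wiesloch were 3.02 into July and -3.86 out of it, both called. It was the only member called between sites in September (-0.85, SE 0.29, adjusted p = 0.044), and this was not called without the 3 libraries with a higher low value (adjusted p = 0.12) or without any of 14 single trees (adjusted p of 0.05 to 0.1). The named HSP90-1 contig contig58107 tracked the leading contig closely, with a Pearson correlation of 0.999 over the 75 libraries on the log2(CPM + 1) scale. Its July level was 902 to 1770 CPM at Wiesloch and 5.14 to 22.2 CPM at Schluchsee. The other contig of that name, isotig131159, was at or below the most frequent low value in 44 libraries and was at 0.501 to 2.91 CPM and 0.0197 to 0.0812 CPM in July (-5.04, adjusted p = 1.5e-17). The correlation was 0.897 for GAEK01009189.1. Such close contigs may share reads, so they are not independent evidence of the course.

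A contig matched to HSP90.3, isotig78712, moved with HSP90.1 and not with the other HSP90.3 contigs. It was at or below the most frequent low value of the library in 30 libraries and had at most 60 counts in any. In July its level was 0.407 to 2.58 CPM at Wiesloch and 0.0274 to 0.138 CPM at Schluchsee, and the 2 sets did not overlap. The July difference was -3.70 (SE 0.31). Outside Wiesloch in July its level was at most 0.431 CPM, and the filter kept it only through that group. Its July values are therefore given as a description with no p. The alternative filter of at least 1 CPM in 4 libraries removed it. Its RefSeq match in the deposited table is the protein entry that the HSP90.1 contigs match, while the other 4 HSP90.3 contigs share another entry, so its assignment to HSP90.3 is uncertain. Its rise from May to June at Wiesloch (1.03, adjusted p = 0.04) was not called with DESeq2 (adjusted p = 0.11), with values at or below the most frequent low value set to 0 (adjusted p = 0.19) or without Cameron Lake tree 9, 12 or 16 or Salmon Arm tree 9, 12 or 15 there.

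Of the 6 other contigs matched to HSP90.2 and HSP90.3, 4 were higher at Schluchsee in July, by small amounts, and 2 were not called. The HSP90.2 contig isotig92632 had a level of 43.7 over 57.8 to 66.4 CPM at Wiesloch in June, 24 over 34.3 to 58.7 CPM in July and 35.3 over 54.3 to 77 CPM in September. At Schluchsee it ran from 23.3 over 44.8 to 62.4 CPM in June, from 50.2 over 60.2 to 74 CPM in July and from 36.8 over 58.4 to 73.9 CPM in September. Wiesloch in July had the lowest median of the 8 combinations of site and month and Schluchsee in July the highest, with overlapping ranges. The log2 fold change was -0.59 from June to July at Wiesloch (SE 0.15, adjusted p = 0.0019) and 0.55 from July to September (SE 0.14, adjusted p = 0.0013). At Schluchsee it was 0.54 from June to July (SE 0.15, adjusted p = 0.0061), and Schluchsee minus Wiesloch was 0.69 in July (SE 0.14, adjusted p = 4.8e-05). The fall into July at Wiesloch was not called with the clock time in the model (adjusted p = 0.092).

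The leading HSP90.3 contig, isotig03258, showed the July site difference in the same direction. Its July level was 52.9 over 80.3 to 86.8 CPM at Wiesloch and 80.1 over 98 to 126 CPM at Schluchsee. The difference was 0.41 (SE 0.1, adjusted p = 0.00045). The contig rose from June to July at Schluchsee (0.34, SE 0.1, adjusted p = 0.011, and 0.052 without Salmon Arm tree 9 there) and from July to September at Wiesloch (0.32, SE 0.1, adjusted p = 0.006). With tree as a block in the model the latter was 0.24 and no longer called (adjusted p = 0.056). Ordered by mean, isotig03258 ran from 73.6 ± 5.94 CPM at Schluchsee in May (SD, n = 10) to 108 ± 7.81 CPM at Schluchsee in September (SD, n = 8), and every pair of neighbours overlapped. The highest-count HSP90 contig of the files, isotig03253, is outside the rule and showed the same July direction. It was at 433 over 534 to 653 CPM at Wiesloch and 704 over 835 to 895 CPM at Schluchsee without overlap (0.59, SE 0.08, adjusted p = 6.7e-09).

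The remaining cytosolic members differed among themselves. The contigs isotig03257 (0.32) and isotig106077 (0.57) were higher at Schluchsee in July, both called, while isotig03259 (-0.06) and isotig66640 (-0.27) were not called. The latter pair rose at Schluchsee from July to September, by 0.54 (adjusted p = 0.026) and 0.71 (adjusted p = 0.031). These rises were 0.30 (adjusted p = 0.44) and 0.42 (adjusted p = 0.41) without the 3 libraries whose most frequent low value is 4 where it is 2 in the other 72. Salmon Arm trees 13 and 14 at Schluchsee in September are 2 of these 3.

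HSP90.1 contigs took up most counts of the cytosolic members in July at Wiesloch and few in July at Schluchsee. They held a median of 86.3% of the counts of the 9 cytosolic members at Wiesloch in July (80.1 to 90.4%). The share was 8.99% in May (4.2 to 43.1%), 32.4% in June (19.7 to 40.5%) and 4.6% in September (3.91 to 8.16%). At Schluchsee it was 11.7% in May, 50.4% in June (31.2 to 71.6%), 5.3% in July (2.85 to 10.6%) and 4.59% in September. The share depends on the unknown lengths of the contigs and is read only across libraries. It leaves out the cytosolic contigs with a name only, contig58107, isotig131159 and isotig03253. The last of these had the highest mean of all HSP90 contigs (687 CPM), so the share of all cytosolic HSP90 counts would differ.

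**Figure D2:**
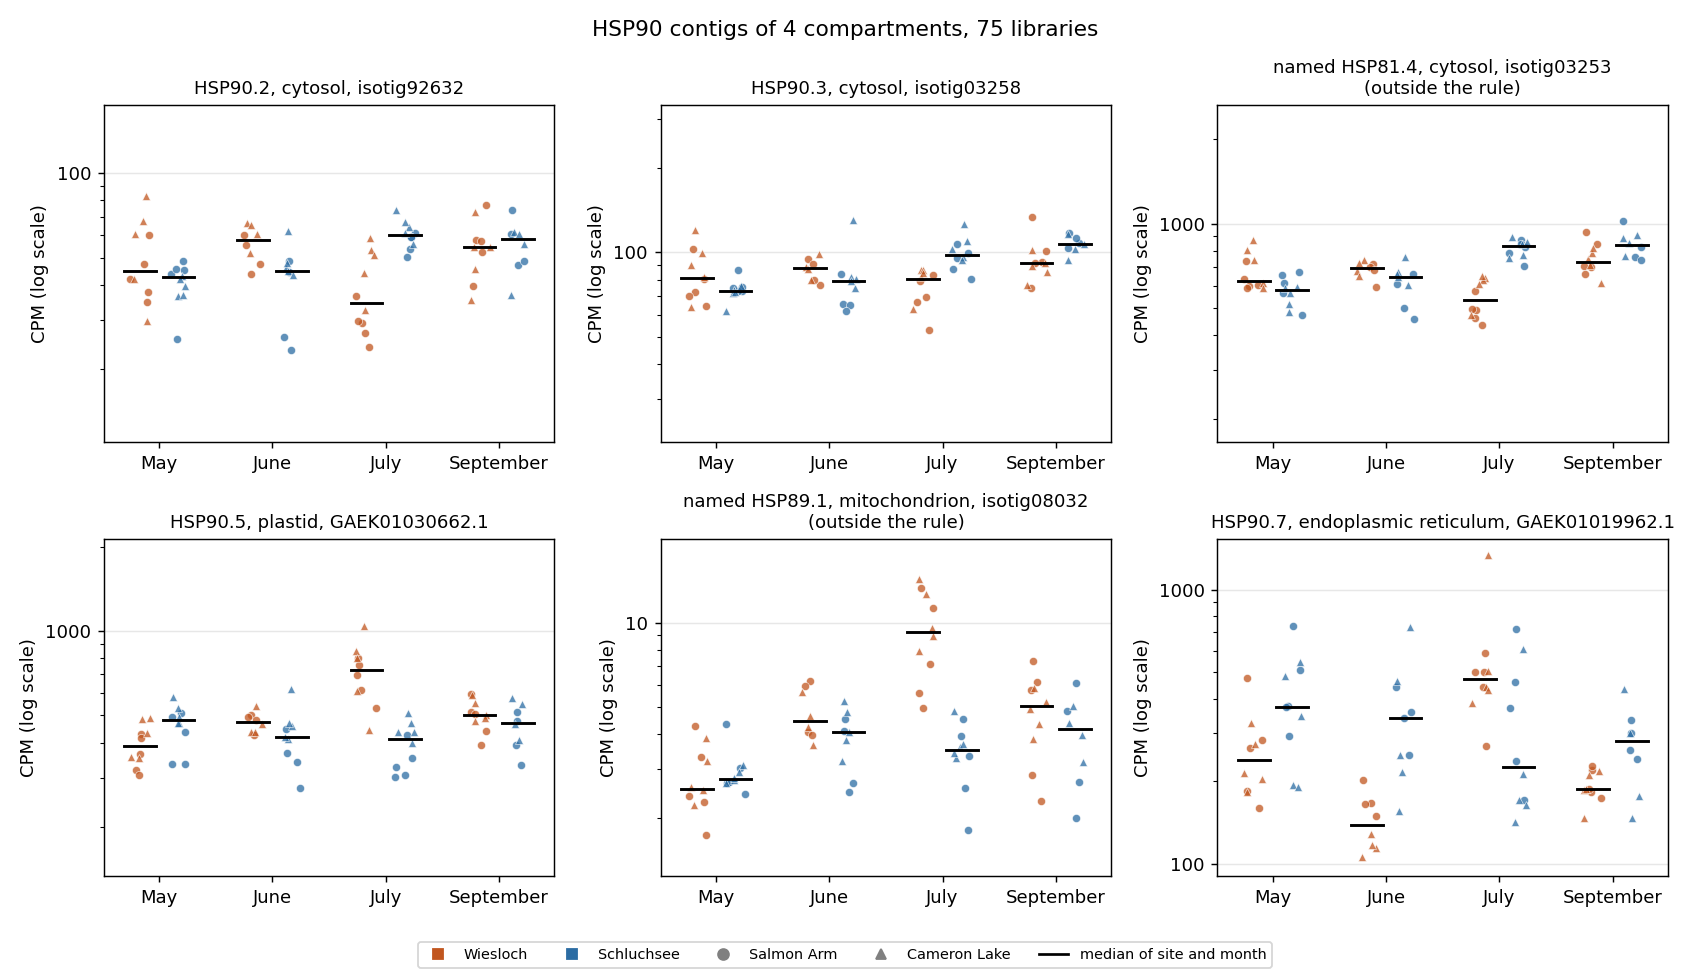
Levels (CPM, log axes) of contigs of HSP90.2, HSP90.3, HSP90.5 and HSP90.7 and of the contigs named HSP81.4 and HSP89.1 in each of 75 libraries by month, with colour for the site, shape for the provenance and bars at the medians. In July the HSP90.2, HSP90.3 and HSP81.4 contigs have lower medians at Wiesloch (34.3, 80.3 and 534 CPM) than at Schluchsee (60.2, 98 and 835 CPM), and the other 3 have higher ones.

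The plastid form was raised in July at Wiesloch, and at Schluchsee no step between months was called. Its leading contig GAEK01030662.1 had a level of 306 over 389 to 490 CPM in May, 426 over 474 to 540 CPM in June, 442 over 727 to 1040 CPM in July and 392 over 503 to 598 CPM in September at Wiesloch. At Schluchsee it ran from 336 over 482 to 580 CPM in May, from 275 over 419 to 623 CPM in June, from 302 over 412 to 511 CPM in July and from 334 over 470 to 576 CPM in September. The July medians of the sites lay apart and the ranges overlapped. The log2 fold change at Wiesloch was 0.60 from June to July (SE 0.12, adjusted p = 6.6e-05) and -0.50 from July to September (SE 0.11, adjusted p = 0.00017), and Schluchsee minus Wiesloch was -0.86 in July (SE 0.11, adjusted p = 1.7e-09). In the order of means Wiesloch in July was highest (715 ± 174 CPM, SD, n = 10) and Wiesloch in May lowest (395 ± 65.6 CPM, SD, n = 10), and all neighbours overlapped. All 8 plastid contigs rose from June to July at Wiesloch (median 1.03, from 0.53 to 1.26). With the clock time in the model that rise was still called for GAEK01030662.1 (0.64) and isotig08031 (0.99) and not for the other 6 (0.55 to 1.04, adjusted p of 0.076 to 0.4). All 8 fell from July to September (median -1.07) and were lower at Schluchsee in July (median -1.52, from -1.95 to -0.72). Without the 3 libraries unlike their tree the rise of isotig08028 (0.84, adjusted p = 0.075) and the fall of isotig99049 (-0.36, adjusted p = 0.054) were not called.

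The plastid contigs did not all vary alike. By their RefSeq match in the deposited table, GAEK01015196.1, GAEK01015195.1, isotig08028, isotig08030 and isotig08031 share 1 protein entry, GAEK01030662.1 and isotig13835 share another, and isotig99049 has its own. GAEK01030662.1 correlated with isotig13835 (0.863) and isotig99049 (0.806) over the 75 libraries. Their July differences between sites were -0.86, -0.8 and -0.72, smaller than those of the other 5, which were -1.49 to -1.95. Among these 5, GAEK01015196.1 and GAEK01015195.1 correlated at 0.997 and isotig08028 and isotig08030 at 0.982, but GAEK01015196.1 and isotig08028, which share their RefSeq entry, at -0.08. Of the 8, only isotig08031 separated the sites in July without overlap, at 21.5 over 34.1 to 57.4 CPM at Wiesloch and 6.07 over 13 to 19.2 CPM at Schluchsee. The balance of the pair varied more between trees than within them. The log2 ratio of GAEK01015196.1 to isotig08028 had tree means from -1.2 to 3.21, with an SD of 1.45 between trees and a pooled SD of 0.59 within trees. Without the 3 libraries unlike their tree the SD within trees was 0.23. The 7 Cameron Lake trees at Schluchsee lay close together (-0.87 to -0.59), while the 6 Salmon Arm trees there had means of 0.86 to 3. At Wiesloch the provenances overlapped, with tree means of -0.78 to 1.96 in Cameron Lake and -1.2 to 3.21 in Salmon Arm. Cameron Lake tree 16 at Wiesloch had a ratio of 2.67 to 3.21 in its other months and -0.84 in July.

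**Figure D3:**
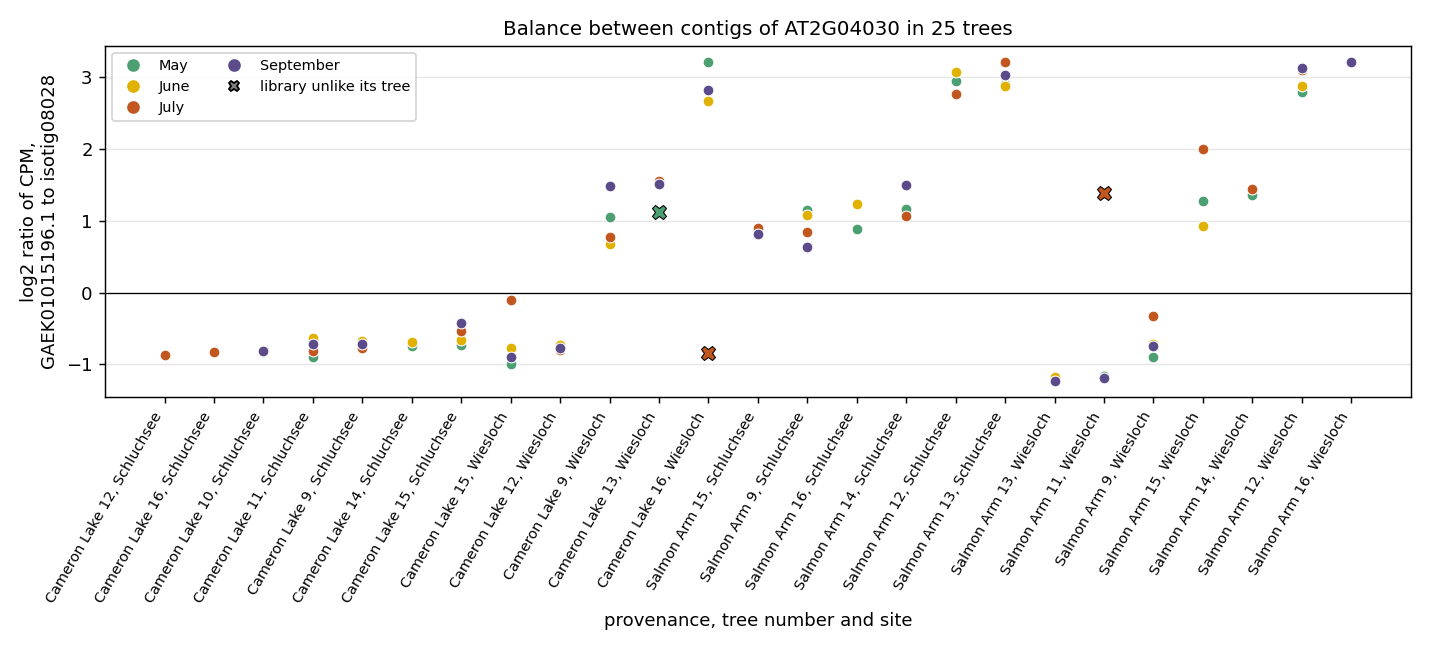
Log2 ratio of the plastid HSP90.5 contigs GAEK01015196.1 and isotig08028 in each library (points, coloured by month) for each of 25 trees, with crosses for the 3 libraries unlike their tree. Tree means run from -1.2 to 3.21, and those of the 7 Cameron Lake trees at Schluchsee from -0.87 to -0.59.

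The contigs named as the mitochondrial form were also higher at Wiesloch in July. The level of isotig08032 in July was 4.95 over 9.24 to 14.3 CPM at Wiesloch and 1.82 over 3.5 to 4.83 CPM at Schluchsee, and that of isotig08033 was 5.03 over 9.6 to 15.7 CPM and 1.87 over 3.37 to 4.9 CPM. Neither pair of ranges overlapped. At Wiesloch isotig08032 rose by 0.99 from June to July (SE 0.21, adjusted p = 0.00016), which was not called with the clock time in the model (adjusted p = 0.11), and changed by -0.97 from July to September (SE 0.19, adjusted p = 3e-05). Schluchsee minus Wiesloch was -1.45 in July (SE 0.19, adjusted p = 6.7e-09). Over the 75 libraries isotig08032 correlated at 0.873 with the plastid-matched isotig08028, and isotig08033 at 0.929 with GAEK01015196.1. The contigs are numbered next to plastid-matched ones and may share reads with them, so the split between these compartments is uncertain here.

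The ER form had its highest median at Wiesloch in July and a wide spread between trees at Schluchsee. Its leading contig GAEK01019962.1 had a level of 160 over 239 to 476 CPM in May, 106 over 138 to 202 CPM in June, 270 over 471 to 1340 CPM in July and 147 over 188 to 228 CPM in September at Wiesloch. At Schluchsee it ran from 190 over 374 to 738 CPM in May, from 156 over 340 to 730 CPM in June, from 142 over 225 to 720 CPM in July and from 147 over 279 to 433 CPM in September. The June and July ranges at Wiesloch did not overlap, and the sites overlapped in July. Apart from the library at 1340 CPM, the July libraries at Wiesloch reached 588 CPM, below the highest Schluchsee libraries of May, June and July. The steps at Wiesloch were -0.86 into June (SE 0.28, adjusted p = 0.04), 1.93 into July (SE 0.29, adjusted p = 3.8e-07) and -1.46 into September (SE 0.26, adjusted p = 5.6e-06). That step into June was not called without Cameron Lake tree 9, 12, 15 or 16 or Salmon Arm tree 9, 11, 13 or 15 at Wiesloch. No step at Schluchsee was called. Schluchsee was higher in June (1.34, SE 0.29, adjusted p = 0.003) and lower in July (-0.75, SE 0.26, adjusted p = 0.014). The July difference was -0.51 and not called without Cameron Lake tree 9 at Wiesloch (adjusted p = 0.099), the tree at 1340 CPM. The June difference was not called with the clock time in the model (1.31, adjusted p = 0.22). The other ER contig, isotig27491, correlated with it at 0.982, and its July difference of -0.64 (adjusted p = 0.043) was not called without any of 12 single trees, with a value of -0.42 without Cameron Lake tree 9 at Wiesloch (adjusted p = 0.2).

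Counted over all 19 members, July at Wiesloch was the point at which most HSP90 contigs changed. From June to July at Wiesloch 13 rose and 1 fell, where 12.3% of all contigs tested rose and 12.8% fell. From July to September there 3 rose and 13 fell (background 20.2% and 21.7%). The rises into July and the falls out of it include isotig78712, which passed the filter only through that month at Wiesloch. The median log2 fold change of the members was 0.99 and -1.07 in these steps, and that of all contigs 0.01 and -0.02. From May to June at Wiesloch 3 rose and 2 fell (background 3.95% and 3.82%). With tree as a block 10 were called, but the share of all contigs called with the block is not given here. Leaving out single trees took the count without the block to 2 without Cameron Lake tree 9, 12 or 16 or Salmon Arm tree 9 or 15 at Wiesloch, and to 3 without Salmon Arm tree 11 or 13 there.

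Schluchsee had fewer calls, and they were cytosolic. From May to June 3 members rose (GAEK01023193.1, GAEK01009189.1 and isotig78712) and none fell (background 7.11% and 6.95%). From June to July 3 rose and 3 fell (8.88% and 8.16%), and from July to September 2 rose and none fell (3.76% and 3.91%). The 2 rises of the last step were called in no contig when Cameron Lake tree 11 or 15 or Salmon Arm tree 13 or 14 at Schluchsee was left out, and in 1 without Cameron Lake tree 9 or Salmon Arm tree 12. No plastid or ER contig was called in any step at Schluchsee. An unadjusted p below 0.05 was reached by 1 plastid contig, from July to September, a step in which 12150 of the 59177 contigs tested reached it.

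**Figure D4:**
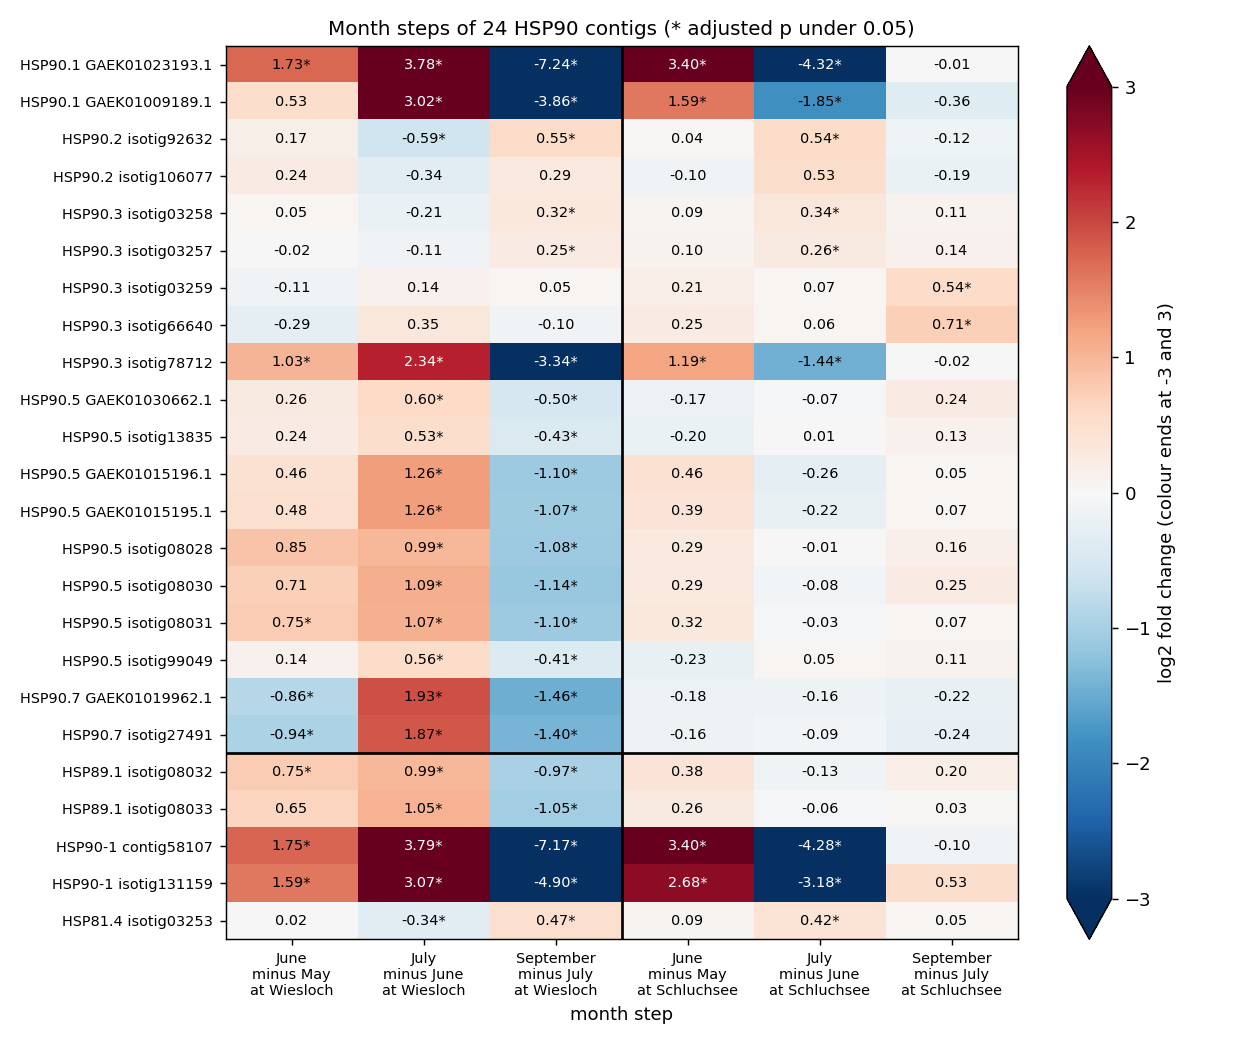
Log2 fold change, as colour and number, of the 19 members and, under the line, the 5 contigs with an HSP90 name only (rows) between neighbouring sampled months at each site (columns), with a star where the adjusted p is below 0.05. From June to July at Wiesloch all 8 plastid and both ER contigs rose, and at Schluchsee the starred members are cytosolic.

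Between sites, July gave 17 called members, 4 higher and 13 lower at Schluchsee, where 22.9% of all contigs were higher and 23.3% lower. The 13 were all plastid and ER members, both HSP90.1 contigs and isotig78712, and the 4 were contigs of HSP90.2 and HSP90.3. Of the 19, 4 had July ranges without overlap with Wiesloch higher, against 3.26% of all contigs, and none with Schluchsee higher, against 3.34%. Among the 13 and among the members without overlap is isotig78712. It passed the filter only through Wiesloch in July and so is no support. In May no member was called (background 2.89% higher and 4.58% lower), and 1 was without Salmon Arm tree 9 at Schluchsee. An unadjusted p below 0.05 was reached there by 8 members and by 13530 of the 59177 contigs tested. In June 3 were higher and none lower at Schluchsee (background 2.89% and 2.98%), namely GAEK01023193.1 and both ER contigs. In September none was higher and 1 lower (4.83% and 5.34%), a count that was 3 without Salmon Arm tree 9 at Schluchsee, 2 without Cameron Lake tree 9 or Salmon Arm tree 16 at Wiesloch, and 0 without any of 11 others. Those 11 were Cameron Lake trees 10, 11 and 15 and Salmon Arm trees 13 and 14 at Schluchsee and Cameron Lake trees 15 and 16 and Salmon Arm trees 9, 11, 12 and 15 at Wiesloch. The course over the months differed between the sites in 18 of 19 members, against 34.9% of all contigs, with isotig106077 the exception (adjusted p = 0.14). Among the 18 is isotig78712, which is no support here for the same reason. For isotig03259 this call ended without any of 16 single trees and with tree as a block (adjusted p = 0.07).

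**Figure D5:**
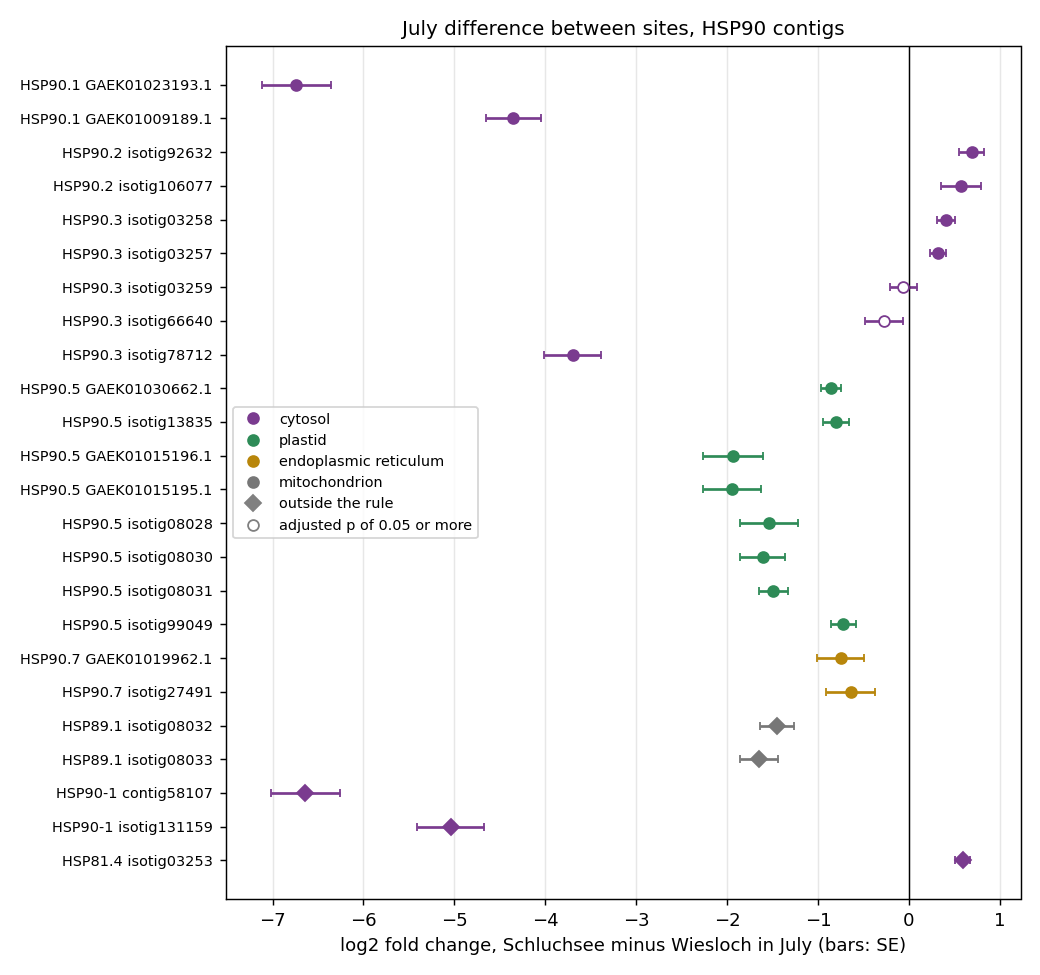
Log2 fold change of Schluchsee against Wiesloch in July for the 19 members (circles) and the 5 contigs with an HSP90 name only (diamonds), coloured by compartment, with bars of 1 SE and open points where the difference was not called. HSP90.1 contig GAEK01023193.1 lies at -6.74, the plastid contigs at -1.95 to -0.72, the ER contigs at -0.75 and -0.64, and HSP90.2 contig isotig92632 at 0.69.

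Whether the summed cytosolic members moved more than the contigs of other compartments was tested on log2 ratios within each library. Contig length cancels between groups only in a ratio of single contigs. The makeup of a sum can change, so the unknown lengths weight the tested differences. In July HSP90.1 held a median of 86.3% of the cytosolic member counts at Wiesloch and 5.3% at Schluchsee. The lead of the cytosol is HSP90.1 through its July level at Wiesloch, since GAEK01023193.1 had a mean of 250 CPM over all libraries and of 65.9 CPM over the 65 others, where isotig03258 had 89.2 CPM. Ratios with that lead are therefore given as values with no p, and the tests use the summed member contigs of each compartment. For the mitochondrial name, isotig08032 and isotig08033 were summed. The cytosolic sum leaves out contig58107, isotig131159 and isotig03253. Of these, isotig03253 had the highest mean of all HSP90 contigs (687 CPM). In July it was higher at Schluchsee (704 to 895 CPM) than at Wiesloch (433 to 653 CPM), opposite to HSP90.1, while contig58107 and isotig131159 were lower at Schluchsee. Ratios with these contigs in the sum were not tested. The differences below are thus those of the members and not of the cytosol as a whole. Both levels of a ratio had 0.5 CPM added. The p-values are from two-sided exact permutation tests over libraries, adjusted over the 12 site tests. In July the ratio of HSP90.1 to HSP90.5 was 1.02 ± 0.55 at Wiesloch (SD, n = 10) and -4.92 ± 0.78 at Schluchsee (SD, n = 10), a difference of -5.95. It was -5.94 against the ER lead and -5.48 against the contig named as mitochondrial.

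With the contigs summed in this way, the July differences of Schluchsee minus Wiesloch were -1.55 for cytosol to plastid, -1.65 for cytosol to ER and -1.04 for cytosol to the mitochondrial name. All 3 passed (exact permutation, adjusted p of 6.5e-05, 0.001 and 6.5e-05). In June the cytosolic sum was higher at Schluchsee relative to the plastid by 0.68 and to the mitochondrial name by 0.83 (exact permutation, adjusted p of 0.0022 and 0.0012). Relative to the ER the difference was -0.77 (exact permutation, adjusted p = 0.037). In September 0.45 against the plastid and 0.62 against the mitochondrial name passed (exact permutation, adjusted p of 0.012 and 0.0067) and -0.20 against the ER did not (adjusted p = 0.25). In May -0.43 against the plastid and -0.85 against the ER passed (exact permutation, adjusted p of 0.021 and 0.013) and -0.23 against the mitochondrial name did not (adjusted p = 0.13). In all, 10 of 12 site tests of the summed contigs passed.

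Within trees, the summed ratios were tested between months by an exact sign-flip test (two-sided, adjusted over the 18), and 9 of 18 passed. Each step had 6 to 9 trees with a library in both months. From June to July at Schluchsee there were 6, with which this test can give no p below 0.031 before adjustment. At Wiesloch cytosol to plastid changed by 0.20 into June (adjusted exact p = 0.2), 1.41 into July (adjusted exact p = 0.031) and -1.93 into September (adjusted exact p = 0.028). Cytosol to ER changed by 1.26 into June and -1.08 into September at Wiesloch (both adjusted exact p = 0.031), and 0.21 into July did not pass (adjusted exact p = 0.58). At Schluchsee cytosol to plastid changed by 1.11 into June (adjusted exact p = 0.028) and -0.39 into July (adjusted exact p = 0.051). The ratio of HSP90.1 alone to the plastid lead changed by 2.45, 2.97 and -6.62 in the steps at Wiesloch and by 3.3 and -3.6 into June and July at Schluchsee, and to the ER lead by 3.46, 1.72 and -5.67 at Wiesloch. Against the mitochondrial name the step into June at Wiesloch was 1.91 for HSP90.1 alone and -0.25 for the summed contigs, which did not pass (adjusted exact p = 0.17).

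Inside the cytosol the ratio of HSP90.1 to HSP90.2 in July was 5.24 ± 0.69 at Wiesloch (SD, n = 10) and -2.24 ± 0.7 at Schluchsee (SD, n = 10), a difference of -7.48. Against HSP90.3 the July difference was -7.19. In June the ratio was higher at Schluchsee by 1.67 against HSP90.2 and by 1.39 against HSP90.3. These forms were set against each other after their values were seen, so the values are given as a description.

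Few differences between the provenances were called. Cameron Lake against Salmon Arm gave no called member in May, June and September (background 7.73%, 3.67% and 3.51%). An unadjusted p below 0.05 was reached by 4, 5 and 3 members, and by 13445, 10166 and 9785 of the 59177 contigs tested. In July 5 members were called (11.4% of all contigs), namely isotig92632 (0.45, adjusted p = 0.03), isotig08030 (0.79) and isotig08031 (0.51) higher and GAEK01015196.1 (-1.03) and GAEK01015195.1 (-0.97) lower in Cameron Lake. None was called without the 3 libraries unlike their tree. The July count ranged from 1 to 6 when single trees were left out and was 1 without Cameron Lake tree 12 or 16 at Wiesloch, Salmon Arm tree 13 at Schluchsee or Salmon Arm tree 12 at Wiesloch. It was 2 without Cameron Lake tree 9, 12 or 15 at Schluchsee or Salmon Arm tree 14 or 15 at Wiesloch, and 3 without Salmon Arm tree 11 there. The May count was 3 without Salmon Arm tree 9 at Wiesloch, among them GAEK01023193.1 (-0.92, adjusted p = 0.029), and 1 without Cameron Lake tree 16 there. The course over months differed between provenances in no member (background 0.00338%). For it, an unadjusted p below 0.05 was reached by 1 member and by 2668 of the 59177 contigs tested.

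Co-chaperones, which load clients onto HSP90 and drive its cycle, were measured for 13 of 14 listed genes. In July 8 were lower and 2 higher at Schluchsee, with a median log2 fold change of -0.66 beside -0.01 over all contigs (background 22.9% higher and 23.3% lower). From June to July at Wiesloch 7 rose and 1 fell (background 12.3% and 12.8%), and from July to September 2 rose and 8 fell (20.2% and 21.7%). ROF1, an immunophilin that binds HSP90 in heat-stressed Arabidopsis, had a median of 116 CPM and a highest value of 215 CPM at Wiesloch and ran from 18.6 over 22.6 to 32.4 CPM at Schluchsee in July (-2.47, SE 0.15, adjusted p = 1.8e-21). HOP2, which links HSP70 to HSP90, had July ranges of 60.5 to 92.6 and 38.2 to 49.5 CPM (-0.78, adjusted p = 2.3e-11). SGT1B, a co-chaperone of immune receptors, was also lower at Schluchsee (-1.18, adjusted p = 1.6e-06). P23-1 (0.61, adjusted p = 0.0019) and the phosphatase PAPP5 (0.95, adjusted p = 8.6e-15) were the 2 that were higher at Schluchsee in July. PAPP5 was at 37.8 over 48 to 69.5 CPM at Wiesloch and 84.6 over 101 to 111 CPM at Schluchsee without overlap.

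Of the heat shock factors and their coactivator, 5 of 12 listed genes were measured, and 4 were lower at Schluchsee in July, none higher (median -1.56, background 23.3% lower). HSFA2, the factor that prolongs the heat response in Arabidopsis, was at 346 over 411 to 490 CPM at Wiesloch and 28.3 over 56.9 to 131 CPM at Schluchsee in July (-2.81, SE 0.21, adjusted p = 2.2e-17). It rose by 2.08 into July at Wiesloch and changed by -4.13 into September. The coactivator MBF1C was lower at Schluchsee by -1.56 on the log2 scale (adjusted p = 5.1e-16). Among the 7 cytosolic partner chaperones, all measured, 4 were lower at Schluchsee in July and none higher (median -0.34, background 23.3% lower). HSP101, the disaggregase, changed by -3.80 (adjusted p = 1.9e-23) and HSP70T-2 by -3.81 (adjusted p = 2.9e-26).

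Of 13 listed ER folding genes 7 were measured. From June to July at Wiesloch 5 rose and none fell (background 12.3% and 12.8%), and 5 were higher at Schluchsee in June, none lower (2.89% and 2.98%). From May to June at Wiesloch, where the ER lead fell, none of the 7 was called (median -0.46), and from July to September none rose and 3 fell (median -0.27, background 20.2% and 21.7%). In July 1 was higher and 2 were lower at Schluchsee (median -0.1), shares near the background of 22.9% and 23.3%. The ER HSP70 BIP1 was at 84.1 over 183 to 460 CPM at Wiesloch and 58.7 over 91.6 to 207 CPM at Schluchsee in July (-0.94, SE 0.19, adjusted p = 5.7e-05), and it was higher at Schluchsee in June (0.92, adjusted p = 0.0055). The lectin chaperone CNX1 changed in the same directions (-0.85 in July, adjusted p = 7.7e-06, and 0.73 in June, adjusted p = 0.0058). The lectin chaperone CRT3 was the 1 higher at Schluchsee in July (0.85, adjusted p = 0.0084).

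The other plastid chaperones were called in both directions. Of 8, all measured, 1 rose and 2 fell from June to July at Wiesloch (background 12.3% and 12.8%), and 6 rose and 1 fell from July to September (20.2% and 21.7%). At Schluchsee 2 were higher and 2 lower in July (median 0.02), shares near the background of 22.9% and 23.3%. The chaperonin subunit CPN60A1 went with HSP90.5 (0.50 into July, -0.52 into September, and -0.78 at Schluchsee in July, adjusted p = 1.1e-10). The disaggregase CLPB3 was lower at Schluchsee in July (-0.77, adjusted p = 1.4e-06). Of the mitochondrial chaperones 3 of 5 were measured, and 1 was lower at Schluchsee in July (background 23.3%), the disaggregase CLPB4. Its level was 31.4 over 108 to 122 CPM at Wiesloch and 12.8 over 17.3 to 28.3 CPM at Schluchsee (-2.49, SE 0.2, adjusted p = 2.8e-16).

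Among markers of other cell types, 1 guard cell gene and 1 xylem gene were called between sites in July, where 22.9% of all contigs were higher and 23.3% lower. The guard cell channel gene SLAC1 was at 6.61 over 10 to 16.7 CPM at Wiesloch and 30.4 over 74 to 95.7 CPM at Schluchsee (2.59, SE 0.3, adjusted p = 9.5e-11). It was the 1 called of 2 guard cell genes measured, whose summed July level was 17.6 to 33.4 CPM at Wiesloch and 41.5 to 107 CPM at Schluchsee. Of 5 xylem genes 1 was called, XCP1 (-0.58, adjusted p = 0.0093), with a summed July level of 47.3 to 67.2 against 34.6 to 65.3 CPM. None of 6 mesophyll genes was called between sites in July (median 0.03). In the step into July at Wiesloch, where 12.3% of all contigs rose and 12.8% fell, 3 of the 6 mesophyll genes fell (median -0.54). In that step SLAC1 fell by 2.19 (adjusted p = 7.5e-08), and of the xylem genes XCP1 rose (0.60) and CESA4 fell (-3.13). The part of these shifts in the HSP90 differences was not tested.

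The contigs most like each lead over the 75 libraries were sought among 18273 contigs with a locus and a mean of at least 5 CPM, by Pearson's correlation of log2(CPM + 1). For HSP90.1 they matched a class II small heat shock protein (AT5G12020, 0.977), a class I small heat shock protein (AT5G59720, 0.973), HSP101 (AT1G74310, 0.972), another small heat shock protein (AT5G51440, 0.969) and an HSP70 (AT3G12580, 0.961). For the plastid lead they were a chaperonin subunit (AT2G28000, 0.814), AT4G01037 (0.801), AT1G80480 (0.779), AT1G02150 (0.777) and AT1G20230 (0.756). For the ER lead they were an HSP70-like protein (AT4G16660, 0.887), a luminal binding protein (AT5G28540, 0.882), calnexin (AT5G61790, 0.842), AT1G14360 (0.808) and AT4G17070 (0.797). The contig isotig45365 of AT5G12020 was at 74.2 over 138 to 261 CPM at Wiesloch and 0.445 over 0.986 to 1.93 CPM at Schluchsee in July (-7.25). The contig contig08539 of the HSP70 AT3G12580 was at 2450 over 2910 to 3640 CPM and 17.9 over 31.5 to 55.4 CPM (-6.42). The list of partner chaperones used another contig of this locus, isotig12578, which was at 493 over 564 to 649 CPM at Wiesloch in May. Its July levels are not given here. For HSP101, BIP1 and CNX1 the lists also used other contigs (isotig21577, GAEK01000931.1 and GAEK01018721.1) than those most like the leads (GAEK01000626.1, isotig24207 and isotig20988). Both isotig45365 and contig08539 were picked for following HSP90.1 over these libraries, so their July differences follow from the pick and have no p here. The correlations share the libraries, their depth and the grouping by day, and are given as a description.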

How the data were processed

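The deposited table holds whole-number read counts per contig for 75 libraries, and the authors' steps are named per the submitters' processing notes only as CASAVA 1.7, Bowtie2 2.1, HTSeq (version not given in the sources used here) and TAIR10. Because a text field holds unescaped tabs, counts were taken from the right end of each line; columns of other content in the deposited file were read only for names. No deposited count is 0, and low values, of which the most frequent is 2 in 72 libraries and 4 in 3, were kept. An Arabidopsis locus is given for 34273 contigs (57.9%). The library kit does not mark strand, and reads may be split between near-identical contigs.

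Counts were tested with edgeR 4.0.16 in R 4.3.3 (filterByExpr, which removed 12 contigs, TMM factors of 0.897 to 1.11, quasi-likelihood test, 16 group means, provenances or sites weighted equally, prior degrees of freedom 2.92). An SE is the log2 fold change divided by the square root of F. The procedure was tested on simulated data. Ratios of compartments were tested by exact permutation between sites and by exact sign flips within trees. Their member contigs, or isotig08032 and isotig08033 for the mitochondrial name, were summed. The lead is the contig with the highest mean CPM of a locus or compartment. Members are all contigs with a listed locus, and likeness was ranked over contigs with a mean of at least 5 CPM. The members and the gene lists were chosen with earlier results of these data known. Same numbers within a provenance and site are the same tree per the labels, and 70 of 72 libraries were closest to their own tree, so tree was used as a block in an alternative. The lowest chi-square per contig between 140 library pairs of a group was 18.28, so none was a duplicate. Alternatives were RLE scaling, DESeq2 1.42.0, other filters, summed loci, clock time, the tree block and left-out libraries.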

Additional observations from a re-analysis of the deposited data

Results flagged for a closer look

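Libraries were compared within groups of 4 to 5 for the 5 leading contigs, 80 groups in all, and 12 held a library far from the others; chance flags about 1 in 20 groups. For HSP90.1 contig GAEK01023193.1 these were Salmon Arm tree 14 at Wiesloch in May (185 CPM, others 10.7 to 36.9), Salmon Arm tree 13 at Wiesloch in June (51.3 CPM, others 130 to 141) and Cameron Lake tree 11 at Schluchsee in July (25.5 CPM, others 8.62 to 12.2). For the ER contig GAEK01019962.1 they were Cameron Lake tree 9 at Wiesloch in July (1340 CPM, others 386 to 504) and Cameron Lake tree 11 at Schluchsee in July (606 CPM, others 142 to 212). The latter library thus stood apart for the cytosolic and the ER lead. Cameron Lake tree 9 at Schluchsee in June stood apart for 3 leads, the plastid GAEK01030662.1 (623 CPM, others 412 to 468), isotig92632 (62.4 CPM, others 43.4 to 47.9) and isotig03258 (131 CPM, others 74.6 to 81.9). For isotig03258 Cameron Lake tree 15 at Wiesloch in July was low (62.7 CPM, others up to 86.8), and Salmon Arm tree 12 at Schluchsee was high in June (83.7 CPM, others 61.9 to 65.6) and in May (86.2 CPM, others 72.6 to 75.1). For isotig92632 Salmon Arm tree 9 at Schluchsee in May was low (25.7 CPM, others 43.6 to 48.5).

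The course over the months differed between the sites for all 5 leading contigs by edgeR's quasi-likelihood test of the difference itself. The adjusted p was 5e-21 for GAEK01023193.1, 3.1e-05 for isotig92632, 0.0007 for isotig03258, 6.2e-07 for GAEK01030662.1 and 0.00012 for GAEK01019962.1.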

How the results depend on the processing

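RLE scaling, DESeq2, no filter, a CPM filter and setting values at or below the most frequent low value to 0 moved no count of called members by more than 1.5 times. From May to June at Wiesloch (5 called) the count was 2 of 5 loci with contigs summed per locus, 1 with clock time, 10 with the tree as replicate block and 10 with that block and without the 3 libraries unlike their tree. From June to July at Wiesloch (14) it was 7 with clock time. At Schluchsee it was 6 from May to June (3) with the block and without those 3 libraries, 3 of 5 loci from June to July (6) with summed loci, and from July to September (2) 0 with summed loci, clock time or without the 3 libraries with the higher low value. Between sites it was 2 with summed loci and 0 with clock time in June (3), and 0 with summed loci or without the libraries with the higher low value in September (1). Between provenances in July (5) it was 2 with clock time and 0 without the libraries unlike their tree. With the contigs of a compartment summed as above, 10 of 12 site ratios and 9 of 18 month ratios passed. The ratio to the mitochondrial name from May to June at Wiesloch reversed, from 1.91 with the lead contig to -0.25 with the summed ones. Where not given by construction, the cause was not tested. The shares of all contigs called under these alternatives are not given here.

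Leaving out 1 tree at a time gave 2 to 6, 13 to 14 and 15 to 16 called members for the steps at Wiesloch, and 2 to 3, 4 to 7 and 0 to 2 at Schluchsee. It gave 0 to 1, 3 to 4, 15 to 17 and 0 to 3 between sites in May, June, July and September, and 0 to 3, 0 to 0, 1 to 6 and 0 to 0 between provenances. It gave 16 to 18 for month by site and 0 to 0 for month by provenance. For the ratios, trees were left out only with the lead contigs, whose ratios are given above as values. The tests of summed contigs were not run with trees left out.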
